A study of Sus scrofa with 92 samples.

Results

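The genes described here are CYP2B6, a cytochrome P450 of drug metabolism, and a group of genes of conjugation and antioxidant defence in the pig liver: UGDH, PTGR1, NR1I3, POR, NQO1, GCLC, GCLM, TXNRD1 and SRXN1. They were chosen by symbol, and CYP2B6, UGDH and PTGR1 were known to be higher 20 hours into resuscitation when the group was drawn up. Every change to 20 hours within a feeding group, from Baseline or from 8 hours, is therefore given as a description with no test. Differences at 20 hours between feeding groups, and between animals that died and lived, were tested, on libraries that this choice also used. Of the 10 genes, 8 had a row among the 25322 pig Ensembl identifiers of the count table, and POR and GCLM were not analysed here. RNA was sequenced from liver biopsies of 23 juvenile male Yorkshire-Landrace pigs, with a Baseline biopsy and further biopsies once full resuscitation had run for 2 (FR2), 8 (FR8) and 20 hours (FR20), which gave 92 libraries. All animals were fasted overnight, instrumented, splenectomized and put through a chest percussive injury, hemorrhage, a liver crush injury and resuscitation. The 18 fasted (FS) animals were given no food before the injury, and the 5 carbohydrate prefed (CPF) animals were given a sugar syrup before induction. Of these, 3 FS animals and 2 CPF animals died. Baseline was the reference, each animal's own where that library was used, and ranges of levels were compared across animals. No uninjured animals were analysed here, so the injury, the anesthesia, the repeated biopsies and the passage of time cannot be told apart.

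The liver clears drugs, toxins and reactive by-products in linked steps. The receptor CAR, encoded by NR1I3, is held inactive in the cytoplasm of hepatocytes, moves to the nucleus when drugs such as phenobarbital are present and switches on CYP2B genes. P450 enzymes oxidise their substrates with electrons from the reductase POR, and the products are then conjugated to glucuronic acid, whose donor is made by UGDH, or to glutathione. A second arm depends on the transcription factor NRF2 (NFE2L2), which the adaptor KEAP1 marks for breakdown until oxidants or electrophiles modify KEAP1. NRF2 then induces NQO1, which reduces quinones, GCLC and GCLM, the subunits of the enzyme that sets the rate of glutathione synthesis, TXNRD1 and SRXN1, which regenerate thioredoxin and peroxiredoxins, and PTGR1, which inactivates leukotriene B4 and reactive alkenals.

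A total of 88 libraries were used, with 6877117 to 16613261 counts each and a median of 12071957. The Baseline libraries of FS animals 17, 19 and 21, which held almost no albumin RNA, and the FR8 library of CPF animal 3, with 4388 counts, were left out. Several of the other libraries did not resemble their labelled timepoint. Over 6823 expressed genes other than the members, 13 of the 88 libraries, from 6 animals, correlated below 0 with the median profile of the other animals at their labelled timepoint and best with another timepoint. These were 3 libraries of each of FS animals 10, 17 and 21, 2 of FS animal 19, and 1 each of FS animal 9 and CPF animal 13. The libraries labelled FR8 of FS animals 17, 19 and 21, for instance, correlated best with Baseline (r = 0.83, 0.55 and 0.85), and the library labelled FR2 of FS animal 10 correlated best with FR20 (r = 0.67). The labels were kept as given, and why these libraries differ was not tested. Values are given for all 88 libraries and, for many of the changes, again without the 6 animals. Cell marker results other than HNF4A, likeness values and pass counts by gene class are given with all animals only. Since the 6 were picked by their expression, leaving them out makes the rest of a timepoint more alike by construction.

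Levels are CPM, that is counts scaled to a common library total, with edgeR's TMM factors, and no gene lengths were used, so levels are compared within a gene and not between genes. Changes are log2 fold changes ± SE from one edgeR quasi-likelihood fit with a term for each animal. A gene passed when its Benjamini-Hochberg adjusted p over all genes tested was below 0.05, and it was called when it also changed by at least 1 on the log2 scale. How many of all genes had libraries wholly outside their Baseline range was not counted. Where such separation is given below, it describes the libraries and nothing is read from it. The hepatocyte marker albumin was detected in all 88 libraries, and the sum of 10 hepatocyte marker rows had FS medians of 214316, 152491, 91720.2 and 58565 CPM from Baseline to FR20. These rows did not move together. With all animals ALB, TTR, TF and AHSG passed downward at each later timepoint, and the others passed upward or did not pass. The sum is therefore no measure of hepatocyte number. In bulk tissue, fewer cells of a type and less RNA per cell cannot be told apart.

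CYP2B6 was higher than Baseline at every timepoint in FS animals, and it rose at FR2 and FR8, where the rule that chose the genes used only the shared Baseline libraries. The row (ENSSSCG00000003006) carries the symbol of the human ortholog, and reads that pig CYP2B copies share could be split or lost in the counting. CYP2B6 in the 15 FS Baseline libraries had a lowest, median and highest level of 49.7, 161 and 649.6 CPM. CYP2B6 at the later timepoints, with 18 libraries each, had 130.1, 833 and 2799 CPM at FR2, 67, 631 and 2901 CPM at FR8 and 224, 1871 and 3986 CPM at FR20. At FR2 12 of 18 libraries, and at FR8 8 of 18, lay above the highest Baseline library, and none lay below the lowest one. The change was 2.22 ± 0.35 at FR2 (adjusted p = 9.78e-07) and 1.97 ± 0.35 at FR8 (adjusted p = 9.65e-06), upward in 15 of 15 animals with both libraries at either timepoint. Among the FR20 libraries 4 lay below the rest. Animals 9, 19, 20 and 21 had 474, 224, 231 and 274 CPM, while the other 14 had 1091 CPM or more. The libraries labelled FR20 of animals 9, 19 and 21, and of animal 17 among the other 14, did not resemble their timepoint. The FR20 change was 3.3 ± 0.36, and animal 20, which died, was the one animal of 15 whose FR20 level was below its own Baseline.

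The order of the CYP2B6 medians in FS animals was Baseline, FR8, FR2 and FR20. FR2 and FR8 did not differ beyond their spread (-0.25 ± 0.31, adjusted p = 0.591, 95% interval -0.86 to 0.36). The FR20 level lay 1.33 ± 0.32 above FR8 on the log2 scale, and higher in 15 of 18 animals, which is a description with no test because the genes were chosen with their FR20 values known. With the 6 animals left out, the changes from Baseline were 2.14 ± 0.30 at FR2, 1.78 ± 0.30 at FR8 and 3.52 ± 0.32 at FR20, and the FR20 level lay above FR8 by 1.73 ± 0.30. The FR20 libraries of those 13 animals ran from 231 to 3986 CPM, with 12 of 13 above the highest Baseline.

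CYP2B6 in CPF animals 3, 7, 8, 13 and 18 was 89, 213, 228, 1530.5 and 264 CPM at Baseline and, in the same order, 272, 362, 652, 2795 and 874 CPM at FR2. CYP2B6 was 231, 456, 2011 and 528 CPM at FR8 in CPF animals 7, 8, 13 and 18 and 1876, 619, 633, 205 and 1849 CPM at FR20 in all 5. Animal 13 stood apart in the CPF group, with the highest level at Baseline, FR2 and FR8 and the lowest in the library labelled FR20, one of those that did not resemble its timepoint. The CPF change was 1.21 ± 0.58 at FR2 (adjusted p = 0.222) and 0.79 ± 0.60 at FR8 (adjusted p = 0.401), neither of which passed, although the direction was upward in 5 of 5 and 4 of 4 animals. At FR20 the CPF change was 2.04 ± 0.64 with all animals and 2.63 ± 0.56 without the 6 animals, of which animal 13 is one.

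NR1I3 (ENSSSCG00000006353), which encodes the receptor CAR, fell at FR2, where CYP2B6 rose. NR1I3 in the 15 FS Baseline libraries had a lowest, median and highest level of 8.1, 17 and 30.6 CPM. NR1I3 at the later timepoints, with 18 libraries each, had 1.01, 2.94 and 48.9 CPM at FR2, 2.89, 18.5 and 39.5 CPM at FR8 and 1.01, 23.4 and 48.4 CPM at FR20. At FR2 15 of 18 FS libraries lay below the lowest Baseline library, and the exceptions were the libraries labelled FR2 of animals 10, 17 and 21, with 48.9, 29 and 26.9 CPM. The log2 fold change at FR2 was -1.73 ± 0.44 (adjusted p = 0.00107), lower in 14 of 15 animals. When the 6 animals were left out, it was -2.7 ± 0.28 (adjusted p = 4.44e-11), lower in 13 of 13 animals, and the FR2 range of 1.01 to 4.27 CPM did not overlap the Baseline range of 8.1 to 27.5 CPM.

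By FR8 the FS median of NR1I3 was back within the Baseline range. From FR2 to FR8 NR1I3 rose by 2.02 ± 0.42 (adjusted p = 0.000237), upward in 15 of 18 animals. Without the 6 animals the rise was 3.11 ± 0.28, upward in 13 of 13 animals. This step compares none of the libraries behind the rule, although they are part of the fit that gave its SE and adjusted p. Against Baseline, FR8 gave 0.29 ± 0.39 (adjusted p = 0.573, 95% interval -0.46 to 1.05) and FR20 gave 0.13 ± 0.38, the smallest FR20 change of the 8 genes. NR1I3 in CPF animals 3, 7, 8, 13 and 18 was 21.7, 16.5, 9.64, 7.74 and 23.9 CPM at Baseline and, in the same order, 6.79, 3.43, 7.29, 2.3 and 4.01 CPM at FR2. NR1I3 was 24.9, 13.2, 29.4 and 11.6 CPM at FR8 in CPF animals 7, 8, 13 and 18 and 24.5, 22.3, 18.3, 19.5 and 23 CPM at FR20 in all 5. All 5 CPF libraries at FR2 lay below the lowest CPF Baseline library. The CPF change at FR2 was -1.7 ± 0.72 (adjusted p = 0.17) and did not pass. Without the 6 animals it was -1.68 ± 0.48 (adjusted p = 0.0237).

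UGDH (ENSSSCG00000030150), the dehydrogenase that makes UDP-glucuronic acid, rose between FR2 and FR8. UGDH in the 15 FS Baseline libraries had a lowest, median and highest level of 98, 177 and 1331 CPM. UGDH at the later timepoints, with 18 libraries each, had 153, 288 and 3512 CPM at FR2, 129, 1079.6 and 2155 CPM at FR8 and 169, 1270.2 and 2991 CPM at FR20. The FS medians at FR8 and FR20 lay close together, and both were above the FR2 median. At FR2 the change was 0.95 ± 0.40 (adjusted p = 0.0511), which did not pass, and 0.29 ± 0.22 without the 6 animals. At FR8 UGDH rose by 2.25 ± 0.39 (adjusted p = 7.66e-06), upward in 14 of 15 animals. The exception was animal 10, whose library labelled Baseline held 1331 CPM and whose library labelled FR8 held 298 CPM. From FR2 to FR8 the rise was 1.3 ± 0.39 (adjusted p = 0.00958) and 2.34 ± 0.22 without the 6 animals. The FR20 level lay 0.12 ± 0.34 from FR8.

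UGDH in CPF animals 3, 7, 8, 13 and 18 was 309, 232, 209, 297 and 306 CPM at Baseline and, in the same order, 329, 348, 236, 670.0 and 502 CPM at FR2. UGDH was 1362, 737, 3362 and 2662 CPM at FR8 in CPF animals 7, 8, 13 and 18 and 1390.2, 2567, 985, 181 and 1721 CPM at FR20 in all 5. Every CPF library at FR8 lay above the highest CPF Baseline library. UGDH rose in CPF animals at FR8 by 2.77 ± 0.73 (adjusted p = 0.00989), upward in 4 of 4 animals, and by 2.41 ± 0.43 without the 6 animals. At FR20 the change was 2.37 ± 0.39 in FS and 2.34 ± 0.69 in CPF animals.

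PTGR1 (ENSSSCG00000021386), the reductase of leukotriene B4 and alkenals, rose at FR8, and its FR2 change did not pass. PTGR1 in the 15 FS Baseline libraries had a lowest, median and highest level of 30.8, 55 and 128 CPM. PTGR1 at the later timepoints, with 18 libraries each, had 18.9, 55.9 and 974 CPM at FR2, 34, 105 and 294 CPM at FR8 and 20.6, 242 and 862 CPM at FR20. The single high library at FR2, 974 CPM, was the one labelled FR2 of animal 10, and the next was 167 CPM in animal 21. Its FS change at FR2 was 0.66 ± 0.37 (adjusted p = 0.148) with all animals and 0.095 ± 0.22 without the 6, and the groups overlapped either way. PTGR1 rose at FR8 by 1.22 ± 0.35 (adjusted p = 0.00413), upward in 14 of 15 animals, and by 1.21 ± 0.22 without the 6 animals. FR8 was above FR2 by 0.56 ± 0.35 (adjusted p = 0.231), a difference that passed without the 6 animals (1.12 ± 0.22, adjusted p = 3.95e-05). The FR20 change was 2.16 ± 0.36, with 13 of 18 libraries above the highest Baseline library.

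PTGR1 in CPF animals 3, 7, 8, 13 and 18 was 95.9, 79.2, 49.5, 43.6 and 62.3 CPM at Baseline and, in the same order, 73.6, 59, 48.4, 160.2 and 71.4 CPM at FR2. PTGR1 was 119.8, 51.5, 467 and 201 CPM at FR8 in CPF animals 7, 8, 13 and 18 and 196, 398, 83, 60.4 and 290.4 CPM at FR20 in all 5. The CPF libraries overlapped between Baseline and each later timepoint. None of the CPF changes tested passed, with 0.21 ± 0.62 at FR2 (adjusted p = 0.886) and 1.41 ± 0.69 at FR8 (adjusted p = 0.166). The FR20 change was 1.55 ± 0.63.

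**Figure D1:**
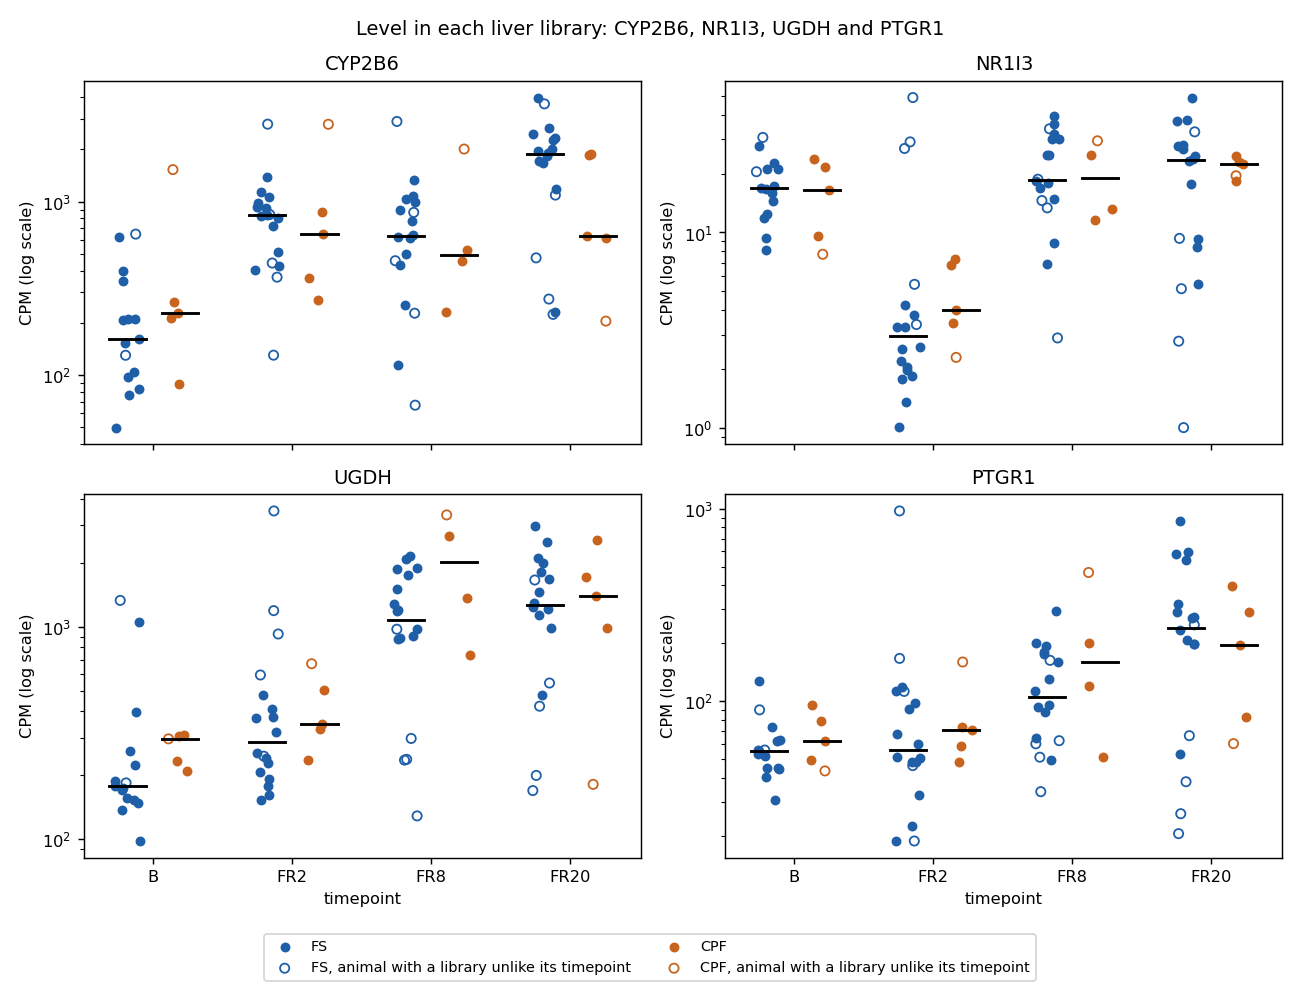
Level (CPM, log scale) of CYP2B6, NR1I3, UGDH and PTGR1 in each of the 88 liver libraries by timepoint, with FS libraries in blue, CPF libraries in orange, a bar at each group median and open circles for the 6 animals with a library unlike its timepoint. CYP2B6 medians in FS climb from 161 to 1871 CPM, and NR1I3 drops to 2.94 CPM at FR2 except in 3 open circles.

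NQO1 (ENSSSCG00000002754), the quinone reductase that is a standard readout of NRF2, was above Baseline at each later timepoint in FS animals. NQO1 in the 15 FS Baseline libraries had a lowest, median and highest level of 23, 39.9 and 122 CPM. NQO1 at the later timepoints, with 18 libraries each, had 31.2, 75.5 and 1909 CPM at FR2, 17, 111 and 361 CPM at FR8 and 45.6, 387 and 1386 CPM at FR20. One FR2 library lay far above the rest, the library labelled FR2 of animal 10 with 1909 CPM against 224 CPM in the next. NQO1 rose at FR2 by 1.53 ± 0.44 (adjusted p = 0.00361) with all animals. Without the 6 animals the rise was 0.71 ± 0.24 (adjusted p = 0.0132), which passed the adjusted p but was under the fold limit for a call. At FR8 the rise was 1.79 ± 0.40 (adjusted p = 0.000305), upward in 14 of 15 animals, and 1.83 ± 0.25 without the 6. The FR20 level lay 1.47 ± 0.38 above FR8, higher in 16 of 18 animals. The FR20 change from Baseline was 3.26 ± 0.43, and every one of 15 animals was above its own Baseline.

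NQO1 in CPF animals 3, 7, 8, 13 and 18 was 50.6, 37.3, 31.5, 23.1 and 53.4 CPM at Baseline and, in the same order, 58.4, 58.3, 39, 82.5 and 87.3 CPM at FR2. NQO1 was 104, 122, 648 and 214 CPM at FR8 in CPF animals 7, 8, 13 and 18 and 256, 401, 151, 39.3 and 473 CPM at FR20 in all 5. All 4 CPF libraries at FR8 lay above the highest CPF Baseline library. NQO1 rose in CPF animals at FR8 by 2.71 ± 0.80 (adjusted p = 0.019), with animal 13 highest, and by 1.73 ± 0.48 (adjusted p = 0.00719) without the 6 animals. The CPF change at FR2 was 0.68 ± 0.69 (adjusted p = 0.613) and did not pass.

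GCLC (ENSSSCG00000001488), the catalytic subunit of glutamate-cysteine ligase, was the one antioxidant gene of the 8 with lower FS and CPF medians at FR2 than at Baseline. GCLC in the 15 FS Baseline libraries had a lowest, median and highest level of 86, 148 and 269 CPM. GCLC at the later timepoints, with 18 libraries each, had 32.7, 59.3 and 1615 CPM at FR2, 80.7, 185 and 605 CPM at FR8 and 21.1, 576 and 1893 CPM at FR20. At FR2 12 of 18 FS libraries lay below the lowest Baseline library, while the libraries labelled FR2 of animals 10, 17 and 21 held 1615, 255 and 442 CPM. With those libraries in the fit the FR2 change was -0.52 ± 0.45 (adjusted p = 0.37) and did not pass, although the level was lower in 14 of 15 animals. When the 6 animals were left out, GCLC fell at FR2, with a log2 fold change of -1.54 ± 0.24 (adjusted p = 6.48e-07), lower in 13 of 13 animals. It then rose from FR2 to FR8 by 1.16 ± 0.42 (adjusted p = 0.0324) with all animals and by 2.13 ± 0.24 without the 6. The FR20 level lay 1.35 ± 0.39 above FR8. The change from Baseline was 0.64 ± 0.40 (adjusted p = 0.203) at FR8 and 1.98 ± 0.42 at FR20.

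GCLC in CPF animals 3, 7, 8, 13 and 18 was 157, 205, 145, 132 and 196 CPM at Baseline and, in the same order, 105, 81.4, 70, 48.1 and 42.8 CPM at FR2. GCLC was 191, 161, 953 and 415 CPM at FR8 in CPF animals 7, 8, 13 and 18 and 734, 538, 302, 161 and 724 CPM at FR20 in all 5. At FR2 all 5 CPF libraries lay below the lowest CPF Baseline library. The CPF change of -1.28 ± 0.72 at FR2 (adjusted p = 0.31) did not pass, and neither did 1.39 ± 0.79 at FR8 (adjusted p = 0.244).

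SRXN1 (ENSSSCG00000023298), the sulfiredoxin that repairs over-oxidised peroxiredoxins, had its highest FS median at FR2, when GCLC and NR1I3 had their lowest. SRXN1 in the 15 FS Baseline libraries had a lowest, median and highest level of 25.6, 54.2 and 261 CPM. SRXN1 at the later timepoints, with 18 libraries each, had 247, 561 and 802 CPM at FR2, 42.1, 223 and 601 CPM at FR8 and 102, 391 and 978 CPM at FR20. At FR2 17 of 18 libraries lay above the highest Baseline library, and without the 6 animals 13 of 13 did. SRXN1 rose at FR2 by 2.81 ± 0.31 (adjusted p = 1.15e-09), upward in 15 of 15 animals, and by 2.89 ± 0.27 without the 6. It was still up at FR8 by 1.78 ± 0.29 (adjusted p = 3.7e-06). Between FR2 and FR8 SRXN1 fell (-1.03 ± 0.27, adjusted p = 0.00288), with 15 of 18 animals lower, and the fall stayed past the adjusted p but under the fold limit without the 6 animals (-0.83 ± 0.25, adjusted p = 0.00558). The FR20 change was 2.5 ± 0.31.

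SRXN1 in CPF animals 3, 7, 8, 13 and 18 was 42.5, 209, 251, 122 and 100.3 CPM at Baseline and, in the same order, 384, 602, 343, 840.3 and 599 CPM at FR2. SRXN1 was 241, 358, 730.0 and 249.5 CPM at FR8 in CPF animals 7, 8, 13 and 18 and 476, 435, 353, 86.4 and 469 CPM at FR20 in all 5. The FR2 and Baseline libraries of the CPF animals did not overlap, a separation that was not counted over all genes. SRXN1 rose in CPF animals at FR2 by 1.99 ± 0.53 (adjusted p = 0.0232), upward in 5 of 5 animals, and by 1.81 ± 0.47 (adjusted p = 0.0125) without the 6 animals. At FR8 the change was 1.38 ± 0.55 (adjusted p = 0.0765) and did not pass.

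TXNRD1 (ENSSSCG00000000843), the cytosolic thioredoxin reductase, had its highest FS median at FR2 as well, and the smallest SE of the 8 genes. TXNRD1 in the 15 FS Baseline libraries had a lowest, median and highest level of 65.8, 96.7 and 225 CPM. TXNRD1 at the later timepoints, with 18 libraries each, had 152, 296 and 489 CPM at FR2, 96.5, 219 and 384 CPM at FR8 and 146, 247 and 396 CPM at FR20. At FR2 13 of 18 libraries lay above the highest Baseline library. TXNRD1 rose at FR2 by 1.54 ± 0.17 (adjusted p = 1.35e-09) and at FR8 by 1.04 ± 0.17 (adjusted p = 3.43e-06), upward in 15 of 15 animals each time. The lowest FR8 libraries were those labelled FR8 of animals 17, 19 and 21, with 96.5, 97.6 and 97 CPM. From FR2 to FR8 TXNRD1 fell, with a change of -0.50 ± 0.16 (adjusted p = 0.0142), and without the 6 animals that difference did not pass (-0.32 ± 0.14, adjusted p = 0.0533). At FR20 the change from Baseline was 1.22 ± 0.18.

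TXNRD1 in CPF animals 3, 7, 8, 13 and 18 was 69.8, 183, 119.8, 137 and 117 CPM at Baseline and, in the same order, 206, 350.3, 134, 425 and 389 CPM at FR2. TXNRD1 was 259, 191, 522 and 287 CPM at FR8 in CPF animals 7, 8, 13 and 18 and 222, 291, 185, 128 and 302 CPM at FR20 in all 5. Every CPF library at FR8 lay above the CPF Baseline libraries. TXNRD1 rose in CPF animals by 1.2 ± 0.31 at FR2 (adjusted p = 0.0192) and by 1.21 ± 0.32 at FR8 (adjusted p = 0.0105), and the FR8 value without the 6 animals was 0.89 ± 0.27 (adjusted p = 0.0152).

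**Figure D2:**
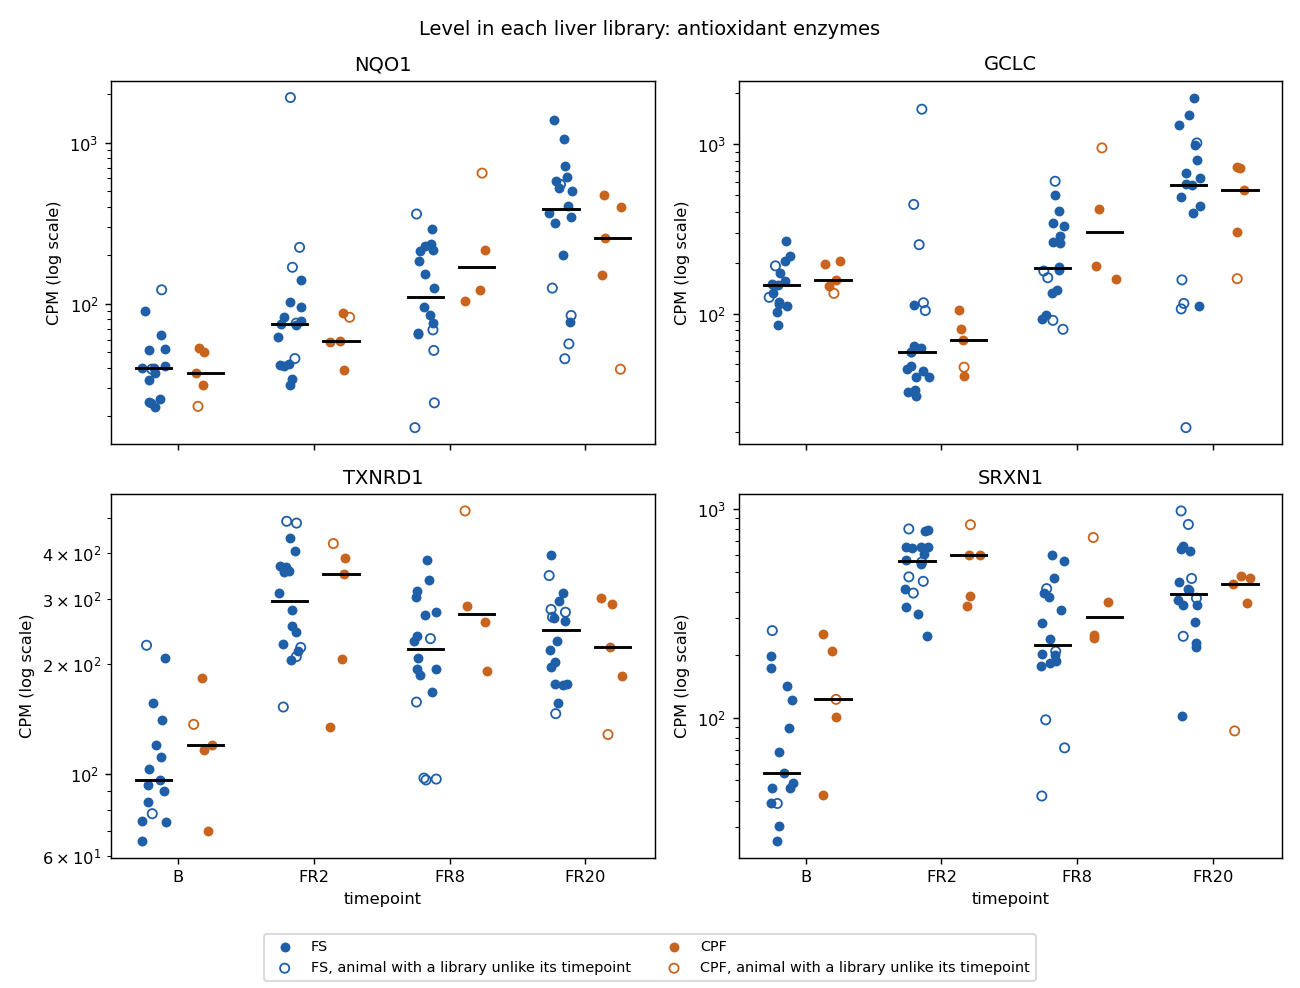
Level (CPM, log scale) of NQO1, GCLC, TXNRD1 and SRXN1 in each of the 88 liver libraries by timepoint, with FS libraries in blue, CPF libraries in orange, a bar at each group median and open circles for the 6 animals with a library unlike its timepoint. SRXN1 medians in FS peak at 561 CPM at FR2, whereas NQO1 and GCLC are highest at FR20, with FS medians of 387 and 576 CPM.

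Counted together, 4 of the 8 genes were called higher and 1 lower in FS animals at FR2, where 5.17% of the 13667 genes tested were called higher and 5.85% lower. At FR8 6 were called higher and none lower, where 4.44% and 7.39% of all genes were. The median log2 fold change of the 8 was 1.24 at FR2 and 1.5 at FR8, beside -0.043 and -0.0016 over all genes. Both comparisons share their Baseline libraries with the change to FR20, which was used to choose the genes. There 7 of the 8 lay at least 1 above Baseline on the log2 scale and none that far below, and 4.68% of all genes were called higher and 5.25% lower, from which nothing is read. Leaving out the 6 animals, 3 genes were called higher and 2 lower at FR2 and 6 higher at FR8, with 15.4% and 20.1% of all genes called in either direction.

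The step from FR2 to FR8 in FS animals compares neither the Baseline nor the FR20 libraries. It is not independent of them, since its animal terms, SE and adjusted p come from the fit over all groups. Here NR1I3, UGDH and GCLC were called higher and SRXN1 lower, while 2.52% of all genes were called higher and 3.43% lower. Without the 6 animals UGDH, PTGR1, NR1I3, NQO1 and GCLC were called higher and none lower, with 16% of all genes called. From FR8 to FR20, described by size alone, CYP2B6, NQO1 and GCLC lay at least 1 higher on the log2 scale and none that far lower, and PTGR1 did so too without the 6 animals (1.32 ± 0.22). Of all genes 1.19% were called higher and 0.278% lower in that step, from which nothing is read.

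In CPF animals SRXN1 and TXNRD1 were called higher at FR2, where 1.47% of all genes were called higher and 0.937% lower. UGDH, NQO1 and TXNRD1 were called higher at FR8, where 3.7% of all genes were called higher and 5.14% lower. These calls rest on few animals. At FR2 none was made when animal 3, 13 or 18 was left out and 1 without animal 7, and at FR8 none without animal 18 and 1 without animal 13. When the animals that died were left out, no CPF call remained at FR8. The CPF changes at FR20, again described by size alone, had a median of 1.52, and 6 of the 8 lay at least 1 above Baseline on the log2 scale, 7 without the 6 animals. Of all genes 0.249% were called higher and 0.454% lower, from which nothing is read.

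**Figure D3:**
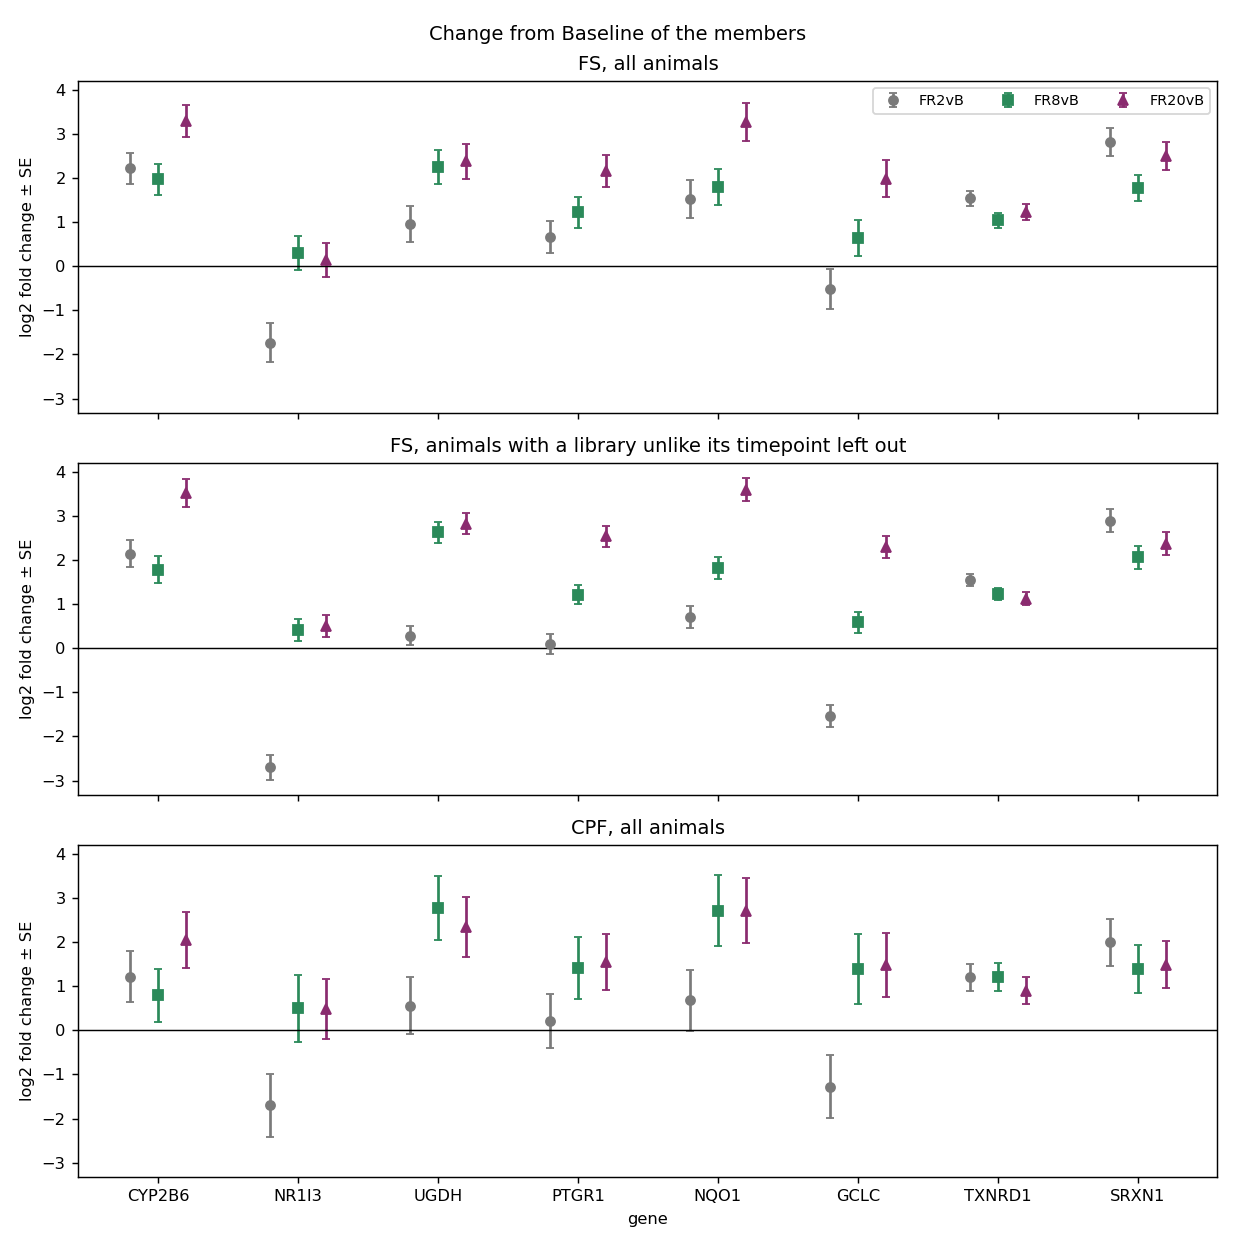
Log2 fold change from Baseline (± SE) of the 8 genes at FR2 (grey circles), FR8 (green squares) and FR20 (purple triangles) in all FS animals, in FS animals without those with a library unlike its timepoint, and in all CPF animals. NR1I3 and GCLC lie below 0 at FR2 in each panel, with GCLC at -0.52, -1.54 and -1.28, and the other 6 lie above it.

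Prefeeding was compared at each timepoint and as a difference between the CPF and FS changes. CYP2B6 showed a smaller rise in CPF than in FS animals in the estimates, with a CPF minus FS difference of -1.0 ± 0.66 at FR2 (95% interval -2.3 to 0.29). It was -1.17 ± 0.70 at FR8, where the interval ran from -2.54 to 0.20, and -1.26 ± 0.71 at FR20, with -2.65 to 0.13, and each interval included 0. SRXN1 gave -0.82 ± 0.59 at FR2 (95% interval -1.98 to 0.33) and -0.40 ± 0.62 at FR8, where the interval ran from -1.61 to 0.81. Its FR20 difference was -1.01 ± 0.60, with -2.2 to 0.17. No difference between the feeding groups' changes passed for any of the 8 genes in the edgeR quasi-likelihood test, none had an unadjusted p under 0.05, and none passed by DESeq2 or the likelihood ratio test. Over all genes the share called was 0% at each timepoint, and 2.9%, 3.42% and 3.81% had an unadjusted p under 0.05 at FR2, FR8 and FR20. The intervals were wide, since the SE ranged up to 0.88. Over the other 6 genes the estimates ran from -0.85 ± 0.81 (NQO1) to 0.025 ± 0.81 (NR1I3) at FR2, from 0.17 ± 0.36 (TXNRD1) to 0.92 ± 0.88 (NQO1) at FR8 and from -0.61 ± 0.71 (PTGR1) to 0.35 ± 0.78 (NR1I3) at FR20. Without the 6 animals with a library unlike its timepoint, the FR8 estimates of these genes all lay below 0, from -0.53 (PTGR1) to -0.060 (GCLC). An interval of -1.04 to 2.08 for UGDH at FR8, for example, leaves room for differences in either direction that exceed the fold limit for a call.

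Compared directly at a timepoint, CPF and FS animals differed in none of the 8 genes past the adjusted p, and the counts at an unadjusted p under 0.05, by DESeq2 and by the likelihood ratio test were also 0. Of all genes 0.0257% were called higher at Baseline and 0% in either direction at the later timepoints, and 7.66%, 5.58%, 5.17% and 3.25% had an unadjusted p under 0.05 from Baseline to FR20. CYP2B6 at Baseline differed by 1.01 ± 0.54 (95% interval -0.050 to 2.08), a value that rests on CPF animal 13. Without animal 13 it was -0.22, and without the 6 animals -0.073 ± 0.49 (-1.04 to 0.89). NQO1 at FR2 differed by -1.51 ± 0.86 (-3.2 to 0.18) with the library labelled FR2 of FS animal 10 in the fit, and by -0.19 ± 0.34 (-0.85 to 0.47) without the 6 animals. At FR8 the 8 differences ran from -0.11 ± 0.42 (NR1I3) to 0.93 ± 0.54 (NQO1), and at FR20 from -0.78 ± 0.56 (CYP2B6) to 0.066 ± 0.51 (NR1I3). NR1I3 at FR2 changed sign when the 6 were left out, from -0.77 ± 0.81 to 1.13 ± 0.30 (adjusted p = 0.324).

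The 5 animals that died were compared with the 18 that lived, with feeding as a term. At FR20 CYP2B6 was 3986, 2672 and 231 CPM in FS animals 2, 16 and 20 and 619 and 633 CPM in CPF animals 7 and 8. These spanned most of the range of the animals that lived, 205 to 3664 CPM. NQO1 at FR20 showed the same spread, with 1386, 714 and 76.6 CPM in FS animals 2, 16 and 20 and 401 and 151 CPM in CPF animals 7 and 8, against 39.3 to 1061 CPM in the animals that lived. Animal 2 was highest and animal 20 among the lowest FS libraries for both genes. The died minus lived difference at FR20 was 0.031 ± 0.55 (95% interval -1.04 to 1.1) for CYP2B6 and 0.67 ± 0.58 (-0.46 to 1.8) for NQO1. At FR2 7 of the 8 differences were below 0, and the median over all genes was -0.020. NQO1 gave -1.51 ± 0.89 (-3.26 to 0.24) and PTGR1 -1.25 ± 0.75 (-2.71 to 0.21). Leaving out the 6 animals, all of which lived, gave -0.51 ± 0.31 for NQO1 and -0.43 ± 0.37 for PTGR1. CYP2B6, NR1I3 and TXNRD1 then lay above 0 at FR2 (0.25, 0.099 and 0.053). At FR8 the 8 differences lay between -0.54 ± 0.55 (NQO1) and -0.066 ± 0.45 (SRXN1). None of the 8 genes passed at any of the 4 timepoints by edgeR's quasi-likelihood test, DESeq2 or the likelihood ratio test, none had an unadjusted p under 0.05, and 0% of all genes were called. The share of all genes with an unadjusted p under 0.05 was 8.54%, 5.52%, 2.22% and 5.22% from Baseline to FR20.

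Other genes of these pathways gave a mixed picture in which falls were the more frequent. Of a list of 124 symbols of receptors, P450s, conjugation, glutathione, thioredoxin and other NRF2 target genes, drawn up with earlier results known, 66 had a row and 61 were tested. In FS animals 9 of the 61 passed upward and 22 downward at FR2, 12 and 26 at FR8, and 14 and 18 at FR20. Of all genes tested 20.3% upward and 21.1% downward passed at FR2, 19.9% upward and 19.5% downward at FR8 and 17.4% upward and 16.4% downward at FR20. The median change of the list was -0.34, -0.29 and -0.082, beside -0.043, -0.0016 and 0.042 over all genes. With the 6 animals left out, the counts were 10 and 32, 13 and 32, and 16 and 22. Of the 31, 38 and 32 genes that passed with all animals, 30, 38 and 30 then passed in the same direction, the exceptions being PGD at FR2 and SQSTM1 and TXN2 at FR20. In CPF animals none passed at FR2, where 3 had an unadjusted p under 0.05 and none passed by DESeq2 or the likelihood ratio test, beside 2% upward and 1.4% downward of all genes and 20% at an unadjusted p under 0.05. At FR8 4 passed upward and 17 downward in CPF animals, beside 6.31% upward and 6.99% downward of all genes, and at FR20 0 and 2, beside 0.278% upward and 0.615% downward.

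Among the regulators, NFE2L2, which encodes NRF2, fell at FR2 (-0.45 ± 0.12, adjusted p = 0.00304) and was at -0.17 ± 0.12 and 0.015 ± 0.12 at FR8 and FR20, neither of which passed. At FR8 it passed without the 6 animals (-0.30 ± 0.11, adjusted p = 0.0196). KEAP1, its inhibitor, was at 0.41 ± 0.18 at FR2 (adjusted p = 0.0708), and it passed upward without the 6 animals (0.56 ± 0.17, adjusted p = 0.00537). SQSTM1, an autophagy receptor that binds KEAP1, rose at FR2 by 1.0 ± 0.18 (adjusted p = 1.07e-05). NR1I2, which encodes the receptor PXR, fell at FR8 (-0.65 ± 0.21, adjusted p = 0.00953). With all animals, none of the 9 P450 and electron donor genes tested passed upward in FS animals. Downward, 4, 8 and 5 passed at FR2, FR8 and FR20. Without the 6 animals CYP1A2, CYP2D6, CYB5A and EPHX1 also passed downward at FR2 (adjusted p = 0.016, 0.00603, 0.026 and 0.015). CYB5A then passed downward at FR20 too (adjusted p = 0.0476). EPHX1 was at 0.63 at FR20 (adjusted p = 0.0698) and passed upward there without the 6 animals (0.86 ± 0.22, adjusted p = 0.00153). The P450s tested were CYP1A1, CYP1A2, CYP2D6 and CYP2E1, and none of the CYP2C and CYP3A symbols listed had a row. CYP1A1, the aryl hydrocarbon receptor target, fell at the 3 timepoints, with changes of -2.14 ± 0.68, -4.54 ± 0.86 and -5.21 ± 0.80 (adjusted p = 0.0086, 2.72e-05 and 9.25e-07). CYP1A2 fell at FR8 (-2.61 ± 0.51) and FR20 (-4.33 ± 0.56), with adjusted p = 3.81e-05 and 2.06e-08. CYP2E1, the ethanol-inducible P450, fell at all 3 timepoints, to -1.48 ± 0.22 at FR20 (adjusted p = 4.38e-07).

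Among 13 conjugation and export genes, 2 passed upward at each timepoint, and 5, 7 and 5 downward at FR2, FR8 and FR20. ABCC3, a basolateral exporter of conjugates, rose at FR2 by 1.13 ± 0.20 (adjusted p = 7.01e-06) and ABCC4 by 1.27 ± 0.44 (adjusted p = 0.0172). ABCC2, the canalicular exporter, rose by 1.24 ± 0.28 at FR8 and 1.82 ± 0.28 at FR20 (adjusted p = 0.000299 and 1.22e-06). GSTT1, a glutathione transferase, fell at FR2, FR8 and FR20, with changes of -0.99 ± 0.32, -2.25 ± 0.36 and -3.07 ± 0.36 (adjusted p = 0.0111, 2.02e-06 and 3.25e-09). Transferase copies of the same family can share reads, so single members are less certain. Of 6 glutathione genes 0, 2 and 3 passed upward at the 3 timepoints, and 1, GGCT, a gamma-glutamylcyclotransferase, passed downward at FR20 (-1.09 ± 0.21, adjusted p = 3.78e-05). GSS, the second enzyme of glutathione synthesis, rose at FR8 by 1.13 ± 0.23 (adjusted p = 8.41e-05), and GSR, glutathione reductase, by 0.79 ± 0.26 at FR8 and 1.4 ± 0.27 at FR20 (adjusted p = 0.0134 and 3.93e-05).

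Of 11 thioredoxin system genes 1, 2 and 1 passed upward and 7, 7 and 6 downward at FR2, FR8 and FR20, and of 14 other NRF2 targets and antioxidants 2, 4 and 7 passed upward and 4, 2 and 1 downward. PRDX1, a peroxiredoxin, rose by 1.4 ± 0.25 at FR8 and 1.55 ± 0.25 at FR20 (adjusted p = 9.43e-06 and 1.81e-06), and ALDH1A1, an aldehyde dehydrogenase, was up by 1.5 ± 0.28 at FR20 (adjusted p = 3.73e-05). MSRB2, a mitochondrial methionine sulfoxide reductase, fell at FR2, with a change of -1.05 ± 0.19 (adjusted p = 1.24e-05). CAT, catalase, fell as well, with changes of -0.96 ± 0.29, -2.08 ± 0.33 and -1.72 ± 0.31 (adjusted p = 0.00669, 2.36e-06 and 1.32e-05). SOD1, the cytosolic superoxide dismutase, fell at FR2 (-0.50 ± 0.12) and FR8 (-0.49 ± 0.13, adjusted p = 0.000898 and 0.00157 in turn). Over the whole list 5 genes passed upward and 13 downward at all 3 timepoints, which share their Baseline libraries. The share of all genes that did so was not counted, so nothing is read from these counts. RXRA, HMOX1, CYP3A29, SOD2 and TXN were not analysed here.

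**Figure D4:**
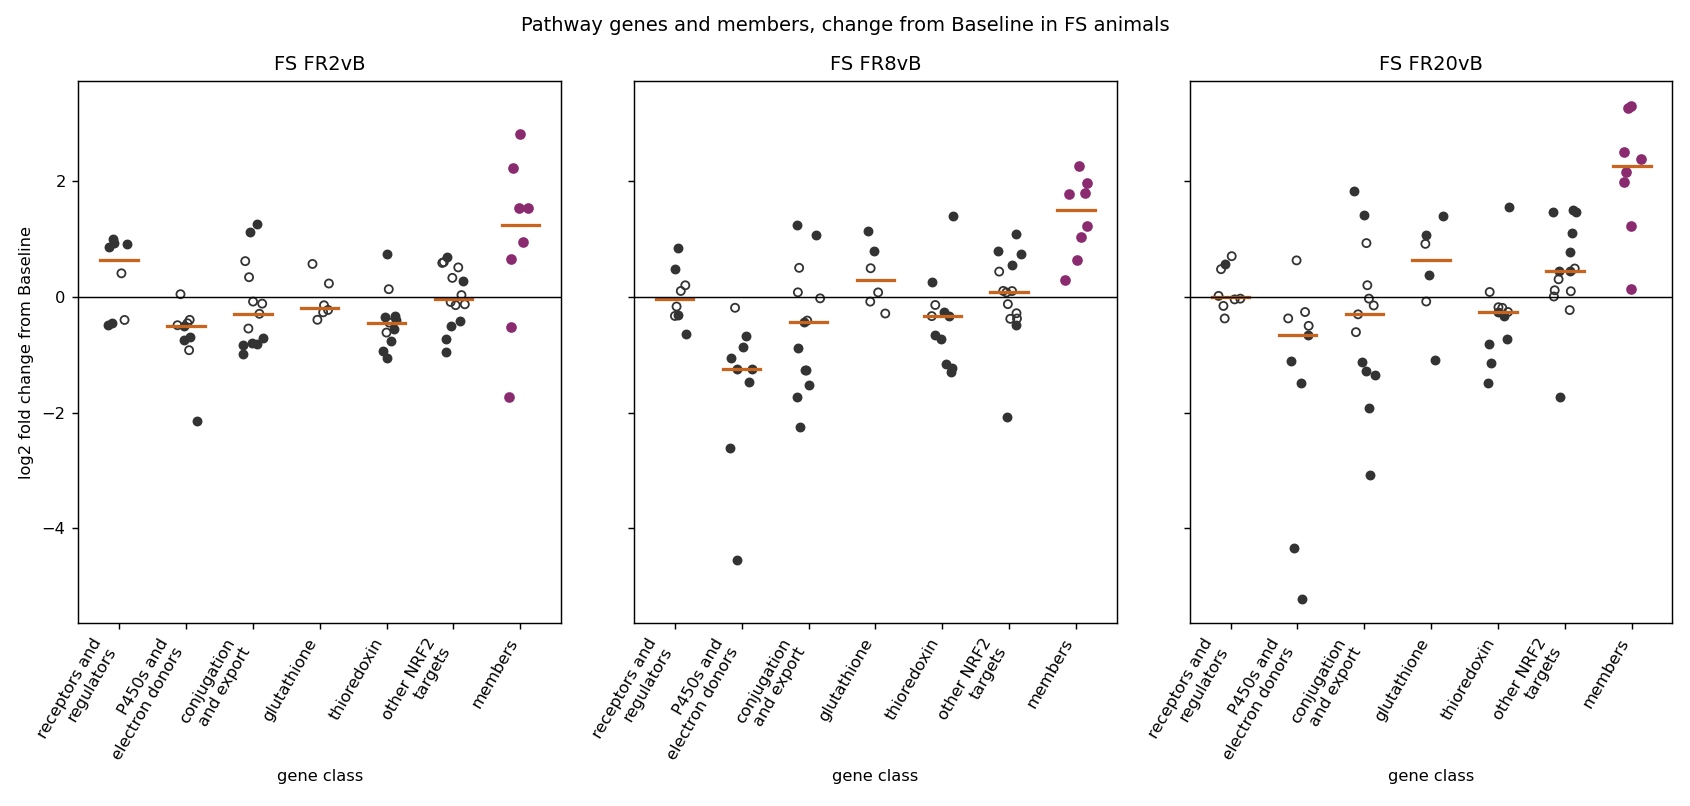
Log2 fold change from Baseline in FS animals of the 61 tested pathway genes, by class, and of the 8 genes described here (purple), at FR2, FR8 and FR20. Filled points passed the adjusted p, open points did not, orange bars are class medians, and the purple points carry no test. The P450 and electron donor class has a median of -1.24 at FR8, where the 8 genes have 1.5.

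Markers of other cells moved over the same hours. Of 10 hepatocyte marker rows, 4 passed downward at each timepoint (ALB, TTR, TF and AHSG) and 2, 2 and 1 upward at FR2, FR8 and FR20. Albumin (ALB) changed by -0.71, -1.43 and -2.22 at FR2, FR8 and FR20. At FR20 HNF4A, APOB, CPS1 and APOA1 did not pass with all animals (-0.37, 0.0078, -0.39 and -0.55), and 1 FGB row rose by 2.29. Without the 6 animals HNF4A passed upward at FR2 (1.24, adjusted p = 1.98e-13). It then passed downward at FR8 (-0.48, adjusted p = 0.000119) and FR20 (-0.56, adjusted p = 1.55e-05). The other markers are given with all animals only. The summed hepatocyte level ran from 91769 to 241361 CPM at Baseline and from 26953 to 170429 CPM at FR20. Of 4 neutrophil markers tested, 3 rose at FR2, 3 at FR8 and 4 at FR20, and their sum had FS medians of 1.03, 15, 7.27 and 5.47 CPM. The neutrophil range was 0 to 13.8 CPM at Baseline and 4.17 to 52.5 CPM at FR2, and CSF3R was at 0 in all 88 libraries. The 5 striated muscle markers had an FS median of 0.193 CPM at Baseline and 0.162 CPM at FR20, with ACTA1, MYH1 and MYH7 at 0 in 29, 59 and 67 of the 88 libraries and single FS libraries up to 135 CPM, and none passed. Of the 4 macrophage markers 2, 3 and 3 passed downward at FR2, FR8 and FR20, and CD68 passed upward at FR20. Their sum had FS medians of 421, 358, 308 and 330.5 CPM from Baseline to FR20. The part of these shifts in the changes of the 8 genes was not tested.

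The other marker lists are given by their FS medians at Baseline, FR2, FR8 and FR20 and by their counts at FR2, FR8 and FR20. The 3 T and NK cell markers summed to 20.1, 19.3, 19.4 and 18.4 CPM, with none passing upward and 1 each time downward. The 4 endothelial markers summed to 174, 182, 197 and 203 CPM, with 1 each time passing upward and none downward. The 2 cholangiocyte markers summed to 16.7, 24.7, 16.7 and 15.4 CPM, with 1, 0 and 0 passing upward and 0, 1 and 1 downward. In each of these lists 1 gene at most passed at a timepoint. The 5 stellate cell and fibroblast markers tested summed to 937, 517, 465.9 and 921 CPM, with 0, 1 and 1 passing upward and 3, 3 and 0 downward. The 2 erythroid markers summed to 255, 244, 120.3 and 109 CPM, with none passing upward and 1, 2 and 2 downward. PLIN1, the one adipocyte marker tested, had FS medians of 1.73 CPM at Baseline and 4.61 CPM at FR20, and passed downward at FR2 and upward at FR20.

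Within groups the 8 genes did not vary as one set. After the mean of each feeding group and timepoint was removed, Pearson's r over the 88 libraries was 0.86 between UGDH and NQO1, 0.82 between PTGR1 and NQO1 and 0.80 between NR1I3 and GCLC. TXNRD1 and SRXN1, the pair highest at FR2, correlated at 0.79, while SRXN1 and NR1I3 were at -0.14. CYP2B6 and NR1I3, target and receptor, were at 0.27. The libraries unlike their timepoint share in these values. Over the libraries of the other 17 animals the same pairs gave 0.69, 0.68, 0.44, 0.72, -0.16 and 0.12. Libraries of one animal are not independent, so these are descriptions with no test.

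Among 9698 genes with a symbol, those most like CYP2B6 on this scale were CBR3 (0.60), MPO (0.60), NQO1 (0.59), UGDH (0.59) and DHRS4 (0.59). MPO is among the neutrophil markers above and was at 0 in 31 of the 88 libraries, and CBR3 and DHRS4 encode carbonyl reductases. All these likeness values cover the 88 libraries, with those unlike their timepoint included. Those most like NQO1 were PGD (0.88), UGDH (0.86), PTGR1 (0.82), PRDX1 (0.80) and PANX2 (0.80), and PGD is an enzyme of the pentose phosphate pathway that makes NADPH. With the group means kept, the closest to CYP2B6 were NQO1 (0.71), PGD (0.66), SRXN1 (0.65), TUBA1C (0.65) and XPNPEP1 (0.65), and the closest to NQO1 were PGD (0.91), UGDH (0.87), PRDX1 (0.85), PTGR1 (0.85) and GSR (0.84).

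**Figure D5:**
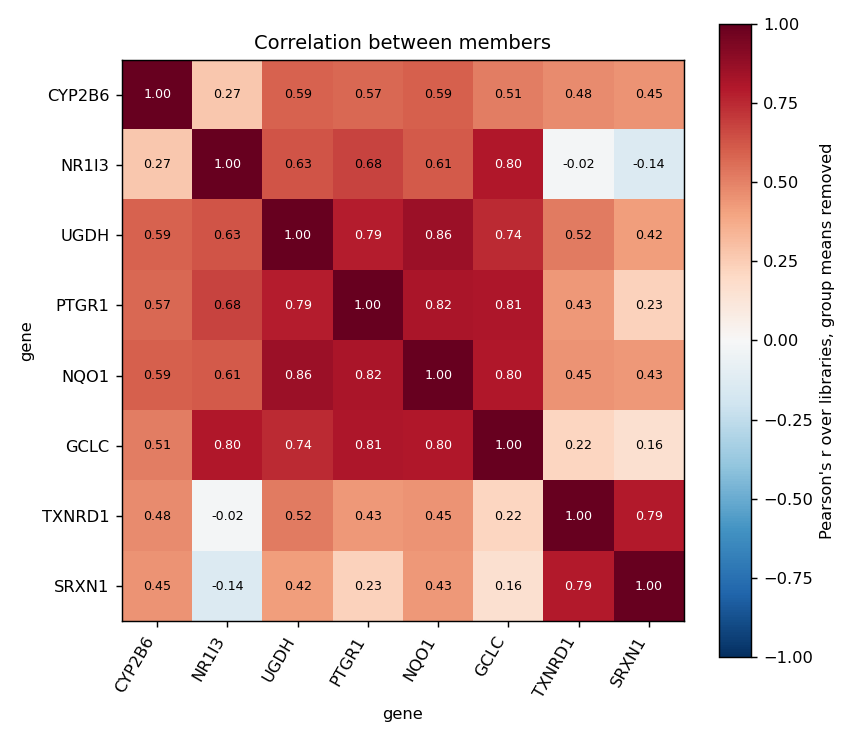
Pearson's r between each pair of the 8 genes over the 88 libraries after the mean of each feeding group and timepoint was removed (red positive, blue negative). UGDH, PTGR1, NQO1 and GCLC form a block with r from 0.74 to 0.86, and TXNRD1 and SRXN1 correlate at 0.79.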

How the data were processed

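Liver RNA was sequenced on an Illumina HiSeq instrument from poly-A libraries made with a kit that does not mark strand. The authors demultiplexed with CASAVA 1.8.2, aligned with TopHat 1.5.0 to the pig genome Sscrofa10.2, sorted with SAMtools and counted reads per gene with HTSeq, whose mode and strand setting are not given in the sources used here, and tested with edgeR 3.2.4 (versions from the submitters' processing notes). The deposited values used here are raw counts per Ensembl gene, with no normalization, of one library per animal and timepoint. The depth of the 88 libraries, 6877117 to 16613261 counts, limits counting precision.

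Counts were tested in R 4.3.3 with edgeR 4.0.16 (quasi-likelihood F test, TMM, a CPM of 10 or more summed over libraries, Benjamini-Hochberg adjustment over all genes tested). Changes were fitted over all groups, with the animal as a factor and timepoint terms specific to FS and to CPF. CPF against FS, and died against lived with a feeding term, were fitted within each timepoint. A call needs an adjusted p below 0.05 and a log2 fold change of at least 1. The SE is the log2 fold change divided by the square root of F, and the approximate 95% interval is ± 1.96 SE. Scripts were tested on simulated counts.

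Libraries of one animal deviated together from their group means (median r = 0.22 over 126 pairs, 92 of them over 0.1) more than libraries of different animals (median r = -0.014 over 1791 pairs, 513 over 0.1). Pairing comes from the animal identifiers, and the animal terms were kept. Groups came from the labels.

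The members, the pathway list and the marker lists were chosen with earlier results of these data known. Named from the pathway list were the 3 highest and 3 lowest changes among the genes that passed in each FS change from Baseline, plus a standing set of 13 regulators and enzymes, and, for likeness, the 5 closest genes to CYP2B6 and NQO1. Genes named outside this rule, among them GGCT, EPHX1, CYP2D6 and CYB5A with their adjusted p, were picked after their values were seen. Alternatives tried were DESeq2 1.42.0, the likelihood ratio test with tagwise dispersion, RLE size factors, other count filters, other covariates and other sets of libraries. Leaving out animals with a Baseline library lacking albumin, animals with a library unlike its timepoint, or FS animal 10 was chosen after seeing the data. Symbols came from the gene name tables and the study's ortholog tables. Pseudogenes and family copies could share reads.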

Additional observations from a re-analysis of the deposited data

Results flagged for a closer look

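In 7 of 64 groups of 4 or 5 libraries tested, 1 sample lay farther from the others than Dixon's 95% limit, where chance alone gives about 1 in 20 groups. CPF animal 13 accounted for 4 of them. Its CYP2B6 level was 1530.5 CPM at Baseline, 2795 CPM at FR2 and 2011 CPM at FR8, and its PTGR1 level at FR2 was 160.2 CPM. Among the animals that died, FS animal 2 had a PTGR1 level of 294 CPM at FR8 and an NQO1 level of 52.6 CPM at Baseline, both above the others, and CPF animal 8 had a TXNRD1 level of 134 CPM at FR2, below the others.

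The Baseline libraries of FS animals 17, 19 and 21, which enter no comparison, held some of the 8 genes above and others below the range of the other FS Baseline libraries. Levels are in CPM of the library total. TXNRD1 was 644, 810.4 and 1119 CPM in these, against at most 249 CPM in the other FS Baseline libraries. SRXN1 was 626, 763 and 833 CPM, against at most 289. NQO1 was 260.0 CPM in animal 19 and 159.5 CPM in animal 21, against at most 135, and 115 CPM, inside the range, in animal 17. The other genes were not higher. PTGR1, NR1I3 and CYP2B6 lay below the lowest of the other FS Baseline libraries in all 3, with PTGR1 at 0.541, 0.997 and 0.749 CPM against at least 23.3 CPM. GCLC was 69.3, 67.1 and 61.6 CPM against at least 69.1 CPM, and UGDH was below the others in animals 17 and 19 and inside their range in animal 21. These libraries held almost no albumin RNA, and what they contain was not tested here.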

How the results depend on the processing

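Members called in FS changes from Baseline (5 at FR2, 6 at FR8) were within 1.5 times of that under every alternative run. CPF counts and the FS step from FR2 to FR8 were less steady. Instead of 2 CPF calls at FR2, 91 libraries (the 3 Baseline libraries lacking albumin kept) gave 0. Instead of 3 at FR8, 91 libraries gave 1 and leaving out the animals that died 0. Values at FR20 were known when the genes were chosen, so no calls are counted for changes to FR20 within a feeding group. Instead of 4 FS calls from FR2 to FR8, 91 libraries and leaving out the animals that died gave 2 each. The cause of these shifts was not tested.

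Log2 values of members that changed sign follow. None passed the adjusted p in the fit with 88 libraries. Without FS animals 17, 19 and 21, these were for CPF minus FS change at FR2 UGDH 0.14, FS FR20 against FR8 TXNRD1 -0.11, CPF against FS at FR2 SRXN1 -0.047, CPF against FS at FR8 CYP2B6 -0.097, CPF against FS at FR20 UGDH -0.15, NR1I3 -0.15, died against lived at FR20 CYP2B6 -0.15. Without the 6 animals, these were for CPF FR2 against Baseline PTGR1 -0.16, CPF FR8 against Baseline NR1I3 -0.038, CPF minus FS change at FR2 UGDH 0.081, GCLC 0.32, CPF minus FS change at FR8 UGDH -0.21, PTGR1 -0.53, NR1I3 -0.44, NQO1 -0.092, GCLC -0.060, TXNRD1 -0.34, CPF minus FS change at FR20 NR1I3 -0.19, FS FR20 against FR8 NR1I3 0.096, TXNRD1 -0.098, CPF against FS at Baseline CYP2B6 -0.073, UGDH 0.046, NR1I3 0.10, NQO1 0.030, died against lived at Baseline CYP2B6 0.16, CPF against FS at FR2 CYP2B6 -0.65, UGDH 0.37, PTGR1 0.0015, NR1I3 1.13, GCLC 0.51, SRXN1 -0.20, died against lived at FR2 CYP2B6 0.25, NR1I3 0.099, TXNRD1 0.053, CPF against FS at FR8 CYP2B6 -0.82, PTGR1 -0.20, NQO1 -0.10, TXNRD1 -0.053, SRXN1 -0.19, died against lived at FR8 CYP2B6 0.36, CPF against FS at FR20 NR1I3 -0.13, TXNRD1 0.097, SRXN1 0.15, died against lived at FR20 CYP2B6 -0.24. With the 3 Baseline libraries lacking albumin kept (91 libraries), these were for CPF minus FS change at FR2 NR1I3 -0.52, TXNRD1 0.32, CPF minus FS change at FR8 PTGR1 -0.16, NR1I3 -0.16, SRXN1 0.20, CPF minus FS change at FR20 TXNRD1 0.45, CPF against FS at Baseline NR1I3 0.11, TXNRD1 -0.74, SRXN1 -0.28, died against lived at Baseline PTGR1 0.044, GCLC 0.081, TXNRD1 -0.35. By the DESeq2 Wald test, these were for CPF against FS at Baseline UGDH 0.12, CPF against FS at FR2 UGDH 0.12, PTGR1 0.26. In FS animals alone, these were for died against lived at FR2 CYP2B6 0.34, TXNRD1 0.18, died against lived at FR8 CYP2B6 0.43, UGDH 0.15, PTGR1 0.35, TXNRD1 0.12, SRXN1 0.16. Without the animals that died, these were for CPF minus FS change at FR2 NR1I3 -0.48, TXNRD1 0.075, CPF minus FS change at FR8 SRXN1 0.48, FS FR8 against FR2 NQO1 -0.0081. Without the feeding term, these were for died against lived at FR8 SRXN1 0.029. With survival as a term, these were for CPF against FS at FR2 SRXN1 -0.024, CPF against FS at FR20 UGDH -0.13.

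With no replicate block, that is without the animal terms that pair libraries, the FS count from FR2 to FR8 was 2. Changed signs were GCLC 0.22 (FS FR2 against Baseline), NR1I3 -0.61 (CPF minus FS change at FR2), UGDH 0.30 (CPF minus FS change at FR20), NQO1 -0.38 (FS FR8 against FR2). Among the other comparisons with calls counted here, leaving out the animal terms changed no count by more than 1.5 times.

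Animals 2, 3, 7, 8, 10, 13, 16, 18 and 20 were left out in turn, animal 10 by a choice made after seeing the data, and leaving out each of the other FS animals was not run. Calls ranged from 0 to 2 in CPF at FR2 and 0 to 3 at FR8. Ranges of the log2 values that changed sign were for CPF FR2 against Baseline PTGR1 -0.17 to 0.37, for CPF FR8 against Baseline NR1I3 -0.021 to 0.92, for CPF minus FS change at FR2 NR1I3 -0.37 to 0.36, for CPF minus FS change at FR8 PTGR1 -0.52 to 0.60, NR1I3 -0.31 to 0.65, NQO1 -0.037 to 1.3, GCLC -0.091 to 1.16, TXNRD1 -0.13 to 0.38, for CPF minus FS change at FR20 UGDH -0.42 to 0.23, for CPF against FS at Baseline CYP2B6 -0.22 to 1.27, UGDH -0.31 to 0.10, PTGR1 -0.032 to 0.27, NR1I3 -0.35 to 0.0078, TXNRD1 -0.043 to 0.27, for died against lived at Baseline CYP2B6 -1.1 to 0.026, GCLC -0.24 to 0.048, for CPF against FS at FR2 CYP2B6 -0.68 to 0.43, UGDH -0.66 to 0.12, PTGR1 -0.91 to 0.27, TXNRD1 -0.20 to 0.12, SRXN1 -0.19 to 0.12, for died against lived at FR2 CYP2B6 -0.28 to 0.20, TXNRD1 -0.10 to 0.14, for CPF against FS at FR8 CYP2B6 -0.92 to 0.38, NR1I3 -0.36 to 0.074, for died against lived at FR8 CYP2B6 -0.47 to 0.22, PTGR1 -1.02 to 0.062, NR1I3 -0.52 to 0.030, TXNRD1 -0.37 to 0.032, SRXN1 -0.27 to 0.19, for CPF against FS at FR20 UGDH -0.32 to 0.32, TXNRD1 -0.25 to 0.032, for died against lived at FR20 CYP2B6 -0.53 to 0.32, PTGR1 -0.085 to 0.91, SRXN1 -0.072 to 0.42.

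Depth limits NR1I3 most, with 8 to 727 counts per library and a median of 191, while each of the other 7 genes had at least 150 counts in every library. The number of animals, mainly the 5 CPF animals and the 5 that died, limits what the feeding and survival comparisons can show.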
